A study of Mus musculus with 12 samples.

Results

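The potassium channel genes were taken as every gene whose symbol starts with Kcn in either of the gene tables deposited for cultured mouse dorsal root ganglion (DRG) neurons. There were 73 such genes among 14177 listed genes. The Cre- table lists all 73, and the Cre+ table, which holds 9112 genes in all, lists 44 of them. Of the 73, 53 had an authors' mean FPKM above 1 in at least 1 genotype and could be tested, 44 in the libraries labelled Cre+, 52 in those labelled Cre- and 43 in both. The other 20 were not listed for Cre+ and were too low to be tested in Cre-, and are accounted for below.

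The study used RiboTag mice, in which Cre recombinase switches the ribosomal protein Rpl22 to a version carrying an HA tag, so that ribosomes and the RNA on them can be pulled down from the cells that express Cre. All mice were adult males homozygous for the tagged allele (Rpl22HA/HA). The mice labelled Runx3-Cre+ also carried Cre driven from Runx3, a transcription factor of proprioceptive neurons, and those labelled Runx3-Cre- did not, so their neurons should hold little tagged Rpl22. Neurons from all ganglia were cultured for 24 h in medium with 10% serum, and each sample pooled 5 mice. Sequencing covered the RNA that came down with the tagged ribosomes and an input, 10% of each lysate set aside. Each combination of genotype and fraction had 3 libraries, 12 in all. The labels give an age of 3 to 6 months, whereas the study's methods give a younger range in weeks. The p-values below measure the spread between these pooled samples. A pull-down with more of an RNA cannot tell apart more tagged cells of a type, more RNA per cell, more ribosomes per RNA and binding without the tag. By their labels, the Cre- pull-downs are the background control. A higher call there is not by itself evidence of RNA on tagged ribosomes. Below, enriched means only higher in the pull-down than in the input.

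Potassium channels let potassium leave or, for some families, enter the cell, and so set the resting potential of sensory neurons, repolarise action potentials and limit firing rate. Most are built from pore-forming subunits, which belong to the voltage-gated Kcna, Kcnb, Kcnc, Kcnd, Kcnh and Kcnq families, the calcium-activated Kcnma and Kcnn and sodium-activated Kcnt families, the inward rectifiers (Kcnj) and the leak channels with tandem pores (Kcnk). Silent subunits (Kcnf, Kcng, Kcns, Kcnv) make no channel alone and join Kcnb subunits, and auxiliary proteins (Kcnab, Kcnip, Kcnmb, Kcne) bind the pore-forming subunits and change their gating or trafficking.

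The pore-forming subunits share a short stretch that codes for the selectivity filter, and the sequences below show it for the members on which the comparisons turn. They come from the coding sequences of GENCODE M21 on GRCm38, 5′ to 3′ on the coding strand, with 6 bases on each side. Capitals mark the match, a run of codons in which the first has C in the middle, the next has T in the middle, the next starts with GG, the next starts with T and the last starts with GG, with any base elsewhere. It was searched in frame on the coding strand only and overlaps no other motif searched.
Kcna1: atgaccACTGTGGGATACGGTgacatg
Kcna2: atgacaACTGTAGGCTATGGAgacatg
Kcnb2: atgaccACTGTGGGCTACGGTgacatt
Kcnc1: atgacgACACTGGGCTATGGAgacatg
Kcns1: atgaccACAGTGGGCTATGGGgatgtg
Kcnj3: gaggccACCATCGGCTATGGCtaccgc
The match was found in 50 of the 71 Kcn genes with a coding sequence (70.4%) and in 2.86% of 21713 protein-coding genes. It was found in 18 of 24 voltage-gated genes, all 7 silent subunits, all 8 calcium- or sodium-activated genes, all 10 inward rectifiers and 7 of 8 Kcnk genes, which hold it 2 times each, and in 0 of 13 auxiliary genes. Kcna1 lies at chr6:126636463-126645801, Kcna2 at chr3:107090883-107115005, Kcnb2 at chr1:15286925-15723751 and Kcnc1 at chr7:46396219-46438706 (RefSeq, GRCm38). Counts are sums over a gene's exons, untranslated parts included.

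The libraries held 8886308 to 18633365 counts on the listed genes. Runx3 itself was called higher in the pull-downs labelled Cre- and not in those labelled Cre+. Its normalised counts (counts per 1000000 after TMM scaling of the library sizes, done for each genotype apart) were 22.8, 2.07 and 11.1 in the Cre+ pull-downs and 4.28, 2.39 and 5.55 in the Cre+ inputs (log2 fold change 1.55, edgeR FDR = 0.309), but 20.8, 36.0 and 51.4 in the Cre- pull-downs and 4.70, 1.90 and 2.88 in the Cre- inputs (log2 fold change 3.52, edgeR FDR = 0.000236). The difference of -1.92 ± 0.99 was not called (edgeR FDR = 0.304). Genotypes are therefore named below by their labels alone. Of the proprioceptor markers, 1 of 5 tested was called higher in Cre+ (Ntrk3) and all 6 in Cre-, with Pvalb not listed for Cre+. The summed neuronal markers were 21020 to 27540 normalised counts in the Cre+ inputs and 22420 to 24540 in the Cre+ pull-downs, against 24200 to 29040 and 49110 to 56650 in Cre-, with 2 of 11 lower in Cre+ and 3 of 11 higher in Cre-. The summed glial markers were 2412 to 3704 in the Cre+ inputs and 1641 to 2267 in the Cre+ pull-downs, with 0 of 6 called, and 2777 to 4294 and 1264 to 1672 in Cre-, with 3 of 8 lower. The summed endothelial markers were 47.8 to 83.2 in the Cre+ inputs and 98.8 to 427 in the Cre+ pull-downs. Of these, 1 of 4 was called higher (Tek), with a median log2 fold change of 1.93. In Cre- the sums were 60.4 to 89.7 and 16.2 to 115, with 0 of 3 called. Tek had a mean of 1.255 in the Cre+ inputs and 19.9 in the Cre+ pull-downs. In Cre-, at 1.81 and 1.36, it was too low to be tested. Its Cre+ call leans on the pull-downs to pass the FPKM limit, so the call and the median holding it are no evidence of enrichment. The part of these markers in the Kcn results was not tested. Across the Kcn genes, log values of replicate libraries correlated at 0.683 to 0.819 among the Cre+ pull-downs, and at 0.90 or more within each of the other groups.

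In the inputs, the highest Kcn level per length belonged to Kcnip3, the calcium-binding protein also known as DREAM or calsenilin, which binds Kcnd channels. It had 157 ± 39.5 normalised counts per kilobase of exon in the Cre+ inputs and 177 ± 25.2 in the Cre- inputs (SD, n = 3). Kcnip4, another Kcnd-binding protein, followed with 88.5 ± 8.4 and 107 ± 17.8, the delayed rectifier Kcna1 with 86.7 ± 23.2 and 94.0 ± 13.3, the Kcna-binding beta subunit Kcnab2 with 83.6 ± 11.2 and 83.6 ± 4.73, and Kcna2 with 22.0 ± 4.00 and 30.3 ± 6.02. The values of Kcnip4, Kcna1 and Kcnab2 overlapped across libraries and their order was not resolved, while each library of Kcnip3 lay above each library of these 3 genes and each library of Kcna2 lay below them. A group at about 15 to 19 per kilobase held Kcnd1, Kcna6, Kcnc4 and Kcnk1, whose libraries also overlapped. Of the 10 highest genes, 8 were also among the 10 highest by the authors' FPKM in each genotype. That FPKM is a mean over inputs and pull-downs together, so it is not a check on the inputs alone.

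**Figure D1:**
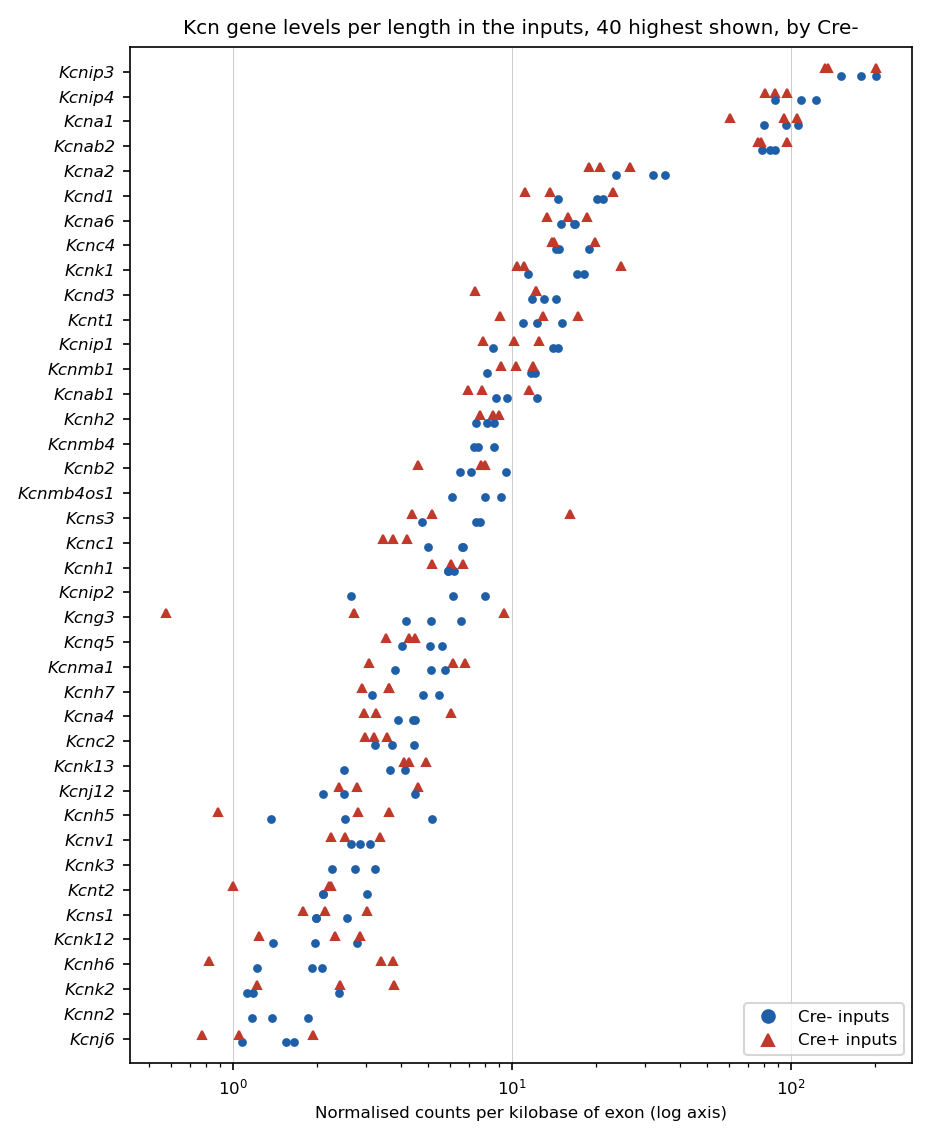
Normalised counts per kilobase of exon (log axis) of 40 Kcn genes, ordered by their mean in the Cre- inputs, with 1 point per input library (blue circles, Cre-; red triangles, Cre+). Kcnip3 is highest, Kcnip4, Kcna1 and Kcnab2 follow together, and genes not listed for Cre+ have blue points only.

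The first question was which potassium channel RNAs were enriched with the ribosome pull-down in each genotype. A gene was called where the FDR of edgeR's quasi-likelihood test was below 0.1 and the change was at least 2-fold. In the libraries labelled Cre+, 7 of 44 Kcn genes were called higher in the pull-down and 0 lower, where 4.72% and 2.19% of all 8947 genes were called. Among them were Kcna1, Kcna2, Kcnb2, Kcnc1 and Kcnh7. The 7 include the noncoding Kcnq1ot1, which passed the FPKM limit only through the pull-downs, where it is high, so that its call is no evidence. Without the 4 Kcn genes that passed the limit through 1 fraction only, 6 of 40 were higher and 0 lower. No count in the Cre+ table is below 5, while genes of the Cre- table can hold lower counts in some libraries. A gene under 5 counts in any Cre+ pull-down was therefore not listed and could not be called lower. The counts of lower genes and the medians in Cre+ carry this limit, and are not directly comparable with those in Cre-. Of the 44, 15 (34.1%) were higher and 0 lower at an unadjusted p below 0.05, against 14.0% and 9.55% of all genes. With upper-quartile scaling 10 were higher and 1 lower (884 and 1129 of all genes), and by library size alone 9 and 3 (556 and 1691 of all genes). DESeq2 and edgeR's exact test also called 0 lower. The median log2 fold change of the 44 was 0.74, against 0.08 for all genes. Values given for the 44 include the 3 genes that passed the limit only through the pull-downs (Kcng2, Kcnk18 and Kcnq1ot1), which are no evidence of enrichment. All 3 pull-downs lay above all 3 inputs for 9 of the 44 (15.5% of all genes) and below them for 5 (17.9% of all genes). In the libraries labelled Cre-, 16 of 52 were higher and 8 lower, where 6.01% and 5.83% of all 11526 genes were called. Scaled by library size alone, 10 were higher and 12 lower, and of all genes 429 and 1238 in place of 693 and 672. With TMM scaling the median of the 52 was -0.07, against -0.04 for all genes. All pull-downs lay above all inputs for 18 of the 52 (18.2% of all genes) and below for 15 (18.6% of all genes).

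**Figure D2:**
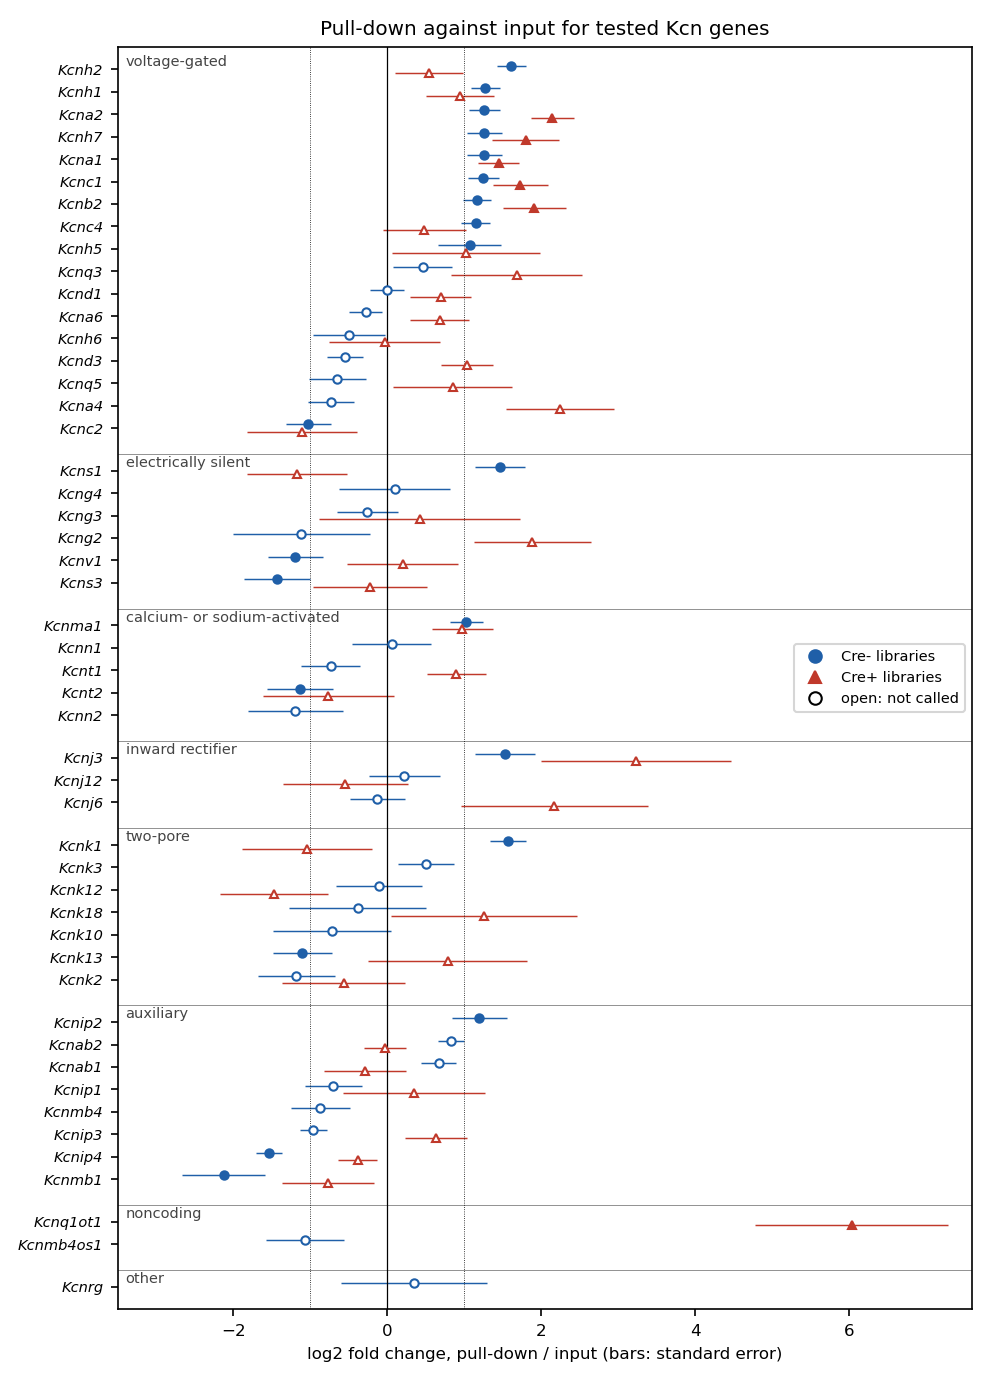
Tested Kcn genes (49 shown) by their pull-down enrichment (log2 fold change, bar = standard error), by channel class (blue circles, Cre-; red triangles, Cre+; filled, called; dotted lines, 2-fold). Filled points to the right are mostly voltage-gated genes such as Kcna1 and Kcna2, whereas among auxiliary genes Kcnip2 is filled to the right and Kcnip4 and Kcnmb1 to the left, in Cre- only.

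The classes are given by their counts and medians, without a test between them. Of the voltage-gated genes, 6 of 21 were higher and 0 lower in Cre+ (median log2 fold change 1.04) and 11 were higher and 2 lower in Cre- (median 1.03). Over all genes, 4.72% were higher and 2.19% lower in Cre+ (median 0.08), and 6.01% and 5.83% in Cre- (median -0.04). In Cre- the class was split, with 12 of 21 log2 fold changes above 0. All Cre- pull-downs lay above all inputs for 11 of these genes and below them for 4. Of the auxiliary genes, 0 of 6 were called in Cre+ (median -0.16), and 1 was higher and 2 were lower of 8 in Cre- (median -0.79). These signs held under each scaling tried, with a voltage-gated median of 0.59 to 1.11 in Cre+ and 0.79 to 1.05 in Cre-. The calls in Cre+ depended on single libraries. Without Cre+ input 1 or without Cre+ input 3, 0 Kcn genes were called higher by edgeR, 11 having an unadjusted p below 0.05 in each case. Over all genes, the higher calls fell in the same fits from 422 to 7 and 4. Over the 6 fits with a Cre+ library left out, the log2 fold change ranged from 1.25 to 1.61 for Kcna1, 1.98 to 2.33 for Kcna2, 1.56 to 2.26 for Kcnb2, 1.67 to 1.87 for Kcnc1, 1.34 to 2.14 for Kcnh7 and 3.10 to 6.57 for Kcnq1ot1. Without Cre+ input 2 there were 2 (59 of all genes), among them Kcna2, and without Cre+ pull-down 1 there were 13 (803 of all genes). In Cre-, 12 of the 16 higher calls were kept whichever library was left out, and 2 of the 8 lower calls, those of Kcnip4 and Kcnmb1. Without Cre- input 1, Cre- input 2 or Cre- pull-down 3, the lower calls numbered 5, 3 and 4, and those of all genes 525, 578 and 572 in place of 672. Of the 6 fits with a Cre- library left out, Kcnh5 lost its higher call in 4, and Kcnip2 and Kcnma1 in 2 each. Lower calls were lost in 5 fits by Kcnt2, in 4 by Kcnk13, in 3 by Kcnc2 and in 2 by Kcns3 and Kcnv1 each. These losses came without any Cre- library but pull-down 1.

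The Kcna subunits form low-threshold delayed rectifiers, and Kcna1 and Kcna2 sit together beside the node of Ranvier and at the axon initial segment. Kcna1 had 268, 416 and 465 normalised counts in the Cre+ inputs and 962, 1075 and 1098 in the Cre+ pull-downs. In the Cre- inputs it had 352, 424 and 468 and in the Cre- pull-downs 628, 1175 and 1180. The pull-downs of both genotypes lay above all their inputs. The log2 fold change was 1.45 ± 0.27 (SE) in Cre+ (edgeR FDR = 0.0371) and 1.26 ± 0.23 in Cre- (edgeR FDR = 0.00339). Kcna2 had 245, 316 and 226 in the Cre+ inputs and 1462, 873 and 1150 in the pull-downs, and 420, 381 and 281 in the Cre- inputs and 786, 1107 and 703 in the pull-downs. Its log2 fold change was 2.15 ± 0.28 in Cre+ (edgeR FDR = 0.0236) and 1.26 ± 0.20 in Cre- (edgeR FDR = 0.00139), again without overlap. The difference between the genotypes was 0.92 ± 0.34 for Kcna2 and missed the threshold (edgeR FDR = 0.172).

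Kcna4 forms a rapidly inactivating A-type current. It had 14.1, 15.6 and 28.9 normalised counts in the Cre+ inputs and 188, 27.1 and 61.5 in the Cre+ pull-downs, and 18.7, 21.6 and 21.2 in the Cre- inputs and 12.8, 15.7 and 8.63 in the Cre- pull-downs. The Cre+ pull-downs spread widely and their lowest library overlapped the inputs, while the Cre- pull-downs all lay below their inputs. Neither change was called (log2 fold change 2.24 ± 0.70, edgeR FDR = 0.108, and -0.73 ± 0.30, edgeR FDR = 0.119), but the difference of 3.00 ± 0.80 was (edgeR FDR = 0.076). DESeq2, the exact test and the fit of 12 libraries did call Kcna4 higher in Cre+. Kcna6 was called in neither genotype, with 0.68 ± 0.38 in Cre+ and -0.28 ± 0.21 in Cre-. The antisense gene Gm26673 covers 40.4% of its exon bases, and since no source says whether counting was by strand, reads of the pair cannot be told apart.

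Kcnb2 forms a delayed rectifier of the soma, and it was enriched in both genotypes. It had 69.6, 121 and 117 in the Cre+ inputs and 205, 386 and 569 in the Cre+ pull-downs (1.91 ± 0.41, edgeR FDR = 0.0513), and 98.9, 145 and 108 in the Cre- inputs and 244, 294 and 252 in the Cre- pull-downs (1.17 ± 0.18, edgeR FDR = 0.00111). The Cre+ call was lost at an FDR of 0.05 and in 4 of the 6 fits with a Cre+ library left out. The Cre- call was lost by library size alone (0.93).

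The Kcnc subunits form fast high-threshold channels that allow rapid firing. Kcnc1 had 39.5, 32.3 and 35.2 normalised counts in the Cre+ inputs and 132, 98.4 and 125 in the Cre+ pull-downs (1.73 ± 0.36, edgeR FDR = 0.0471). In Cre- it had 62.1, 62.4 and 46.9 in the inputs and 109, 160 and 140 in the pull-downs (1.25 ± 0.20, edgeR FDR = 0.0014). Pull-downs and inputs did not overlap in either genotype. Kcnc4, an inactivating member of the family, was called in Cre-, with 69.1, 54.1 and 52.5 in the inputs and 112, 146 and 132 in the pull-downs (1.15 ± 0.19, edgeR FDR = 0.0016). In Cre+ its pull-downs ranged from 26.5 to 113 around inputs of 51.0 to 73.0. Kcnc2 was lower in Cre-, with 28.1, 23.4 and 20.4 in the Cre- inputs and 15.2, 10.4 and 9.68 in the Cre- pull-downs (-1.03 ± 0.29, edgeR FDR = 0.0313). Its Cre+ pull-downs, at 12.5, 13.3 and 2.65, also all lay below the inputs of 18.8 to 22.4, without passing the test (-1.11 ± 0.72, edgeR FDR = 0.374). The Cre- calls of Kcnc4 and Kcnc2 were lost with 12 libraries in 1 fit, and that of Kcnc4 also by library size alone.

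The Kcnd subunits carry the somatodendritic A-type current and are the partners of the Kcnip proteins. Neither tested member was called in either genotype. With DESeq2, the exact test or 12 libraries in 1 fit, Kcnd3 was called higher in Cre+. Kcnd3 had 56.1, 92.8 and 92.4 normalised counts in the Cre+ inputs and 138, 166 and 191 in the Cre+ pull-downs (1.03 ± 0.34, edgeR FDR = 0.117), and 109, 99.1 and 89.8 in the Cre- inputs and 79.3, 81.4 and 43.2 in the Cre- pull-downs (-0.55 ± 0.23, edgeR FDR = 0.134). All pull-downs lay above the inputs in Cre+ and all below in Cre-, and the difference of 1.62 ± 0.42 was called (edgeR FDR = 0.0699). Kcnd1, the most abundant Kcnd gene per length, had a log2 fold change of 0.70 ± 0.40 in Cre+ and 0.00 ± 0.22 in Cre-, with overlapping values in both.

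The Kcnh genes code for the channels named after the ether-a-go-go mutant of the fly, including the erg channel Kcnh2. In Cre-, 4 of 5 tested members were called higher, as were 6.01% of all genes. Kcnh2 had 34.4, 37.9 and 40.2 normalised counts in the Cre- inputs and 97.9, 124 and 123 in the pull-downs (1.61 ± 0.19, edgeR FDR = 0.000159). In Cre+ it had 39.5, 35.7 and 41.6 in the inputs and 54.2, 77.7 and 38.9 in the pull-downs, which overlapped (0.55 ± 0.44, edgeR FDR = 0.475). Kcnh1 was enriched in Cre- too, with inputs at 42.5 to 44.8 and pull-downs at 84.5 to 121 (1.27 ± 0.19, edgeR FDR = 0.000872). Kcnh7, another erg channel, was the only Kcnh gene called in both genotypes. It had 42.3, 52.8 and 53.2 in the Cre+ inputs and 90.5, 155 and 271 in the Cre+ pull-downs (1.80 ± 0.43, edgeR FDR = 0.0654), and 80.3, 70.2 and 46.2 in the Cre- inputs and 130, 190 and 152 in the Cre- pull-downs (1.26 ± 0.23, edgeR FDR = 0.00279). The antisense gene Gca covers 4.75% of its exon bases. The Cre+ call of Kcnh7 was lost by library size alone, at an FDR of 0.05 and in 4 of the 6 fits with a Cre+ library left out. Kcnh5 was called in Cre- (1.07 ± 0.40, edgeR FDR = 0.091) with a single high input, at 21 against 5.53 and 10.2, and pull-downs of 27.2, 24.8 and 24.9. Its call was also lost with either other filter on low counts, by library size alone, at an FDR of 0.05 and with 12 libraries in 1 fit. Kcnh6 was called in neither genotype.

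The Kcnq subunits carry the M-current, which holds neurons below threshold. Kcnq3 had 8.82, 18.3 and 22.4 normalised counts in the Cre- inputs and 13.4, 31.0 and 23.9 in the pull-downs (0.46 ± 0.39, edgeR FDR = 0.455). Kcnq5 had 39.1, 35.3 and 28.1 in the Cre- inputs and 18.2, 36.0 and 11.1 in the pull-downs (-0.65 ± 0.37, edgeR FDR = 0.256). Inputs and pull-downs overlapped for both. In Cre+ neither was called (1.68 ± 0.85, edgeR FDR = 0.265, and 0.85 ± 0.78, edgeR FDR = 0.529). Among the Cre+ pull-downs both were lowest in pull-down 1, Kcnq3 at 5.33 against 44.5 and 49.2 and Kcnq5 at 6.00 against 75 and 73.7. The Cre+ inputs were 4.54, 12.45 and 13.8 for Kcnq3, low in input 1 too, and 24.6, 29.8 and 31.3 for Kcnq5.

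**Figure D3:**
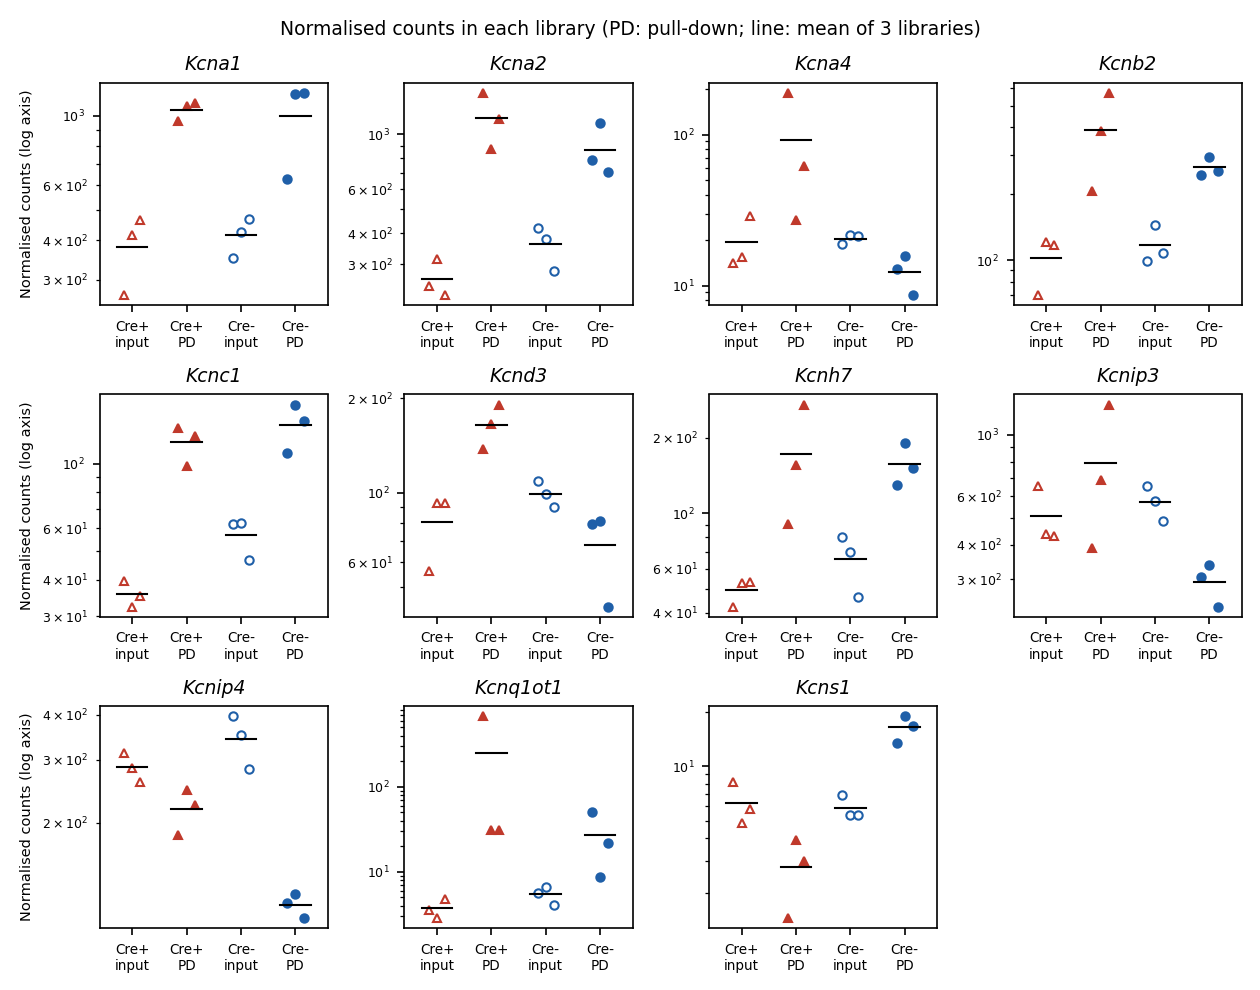
Normalised counts (log axes, 1 scale per gene) in each of the 12 libraries for 11 Kcn genes called in Cre+ or for the difference between genotypes, with lines at the means of 3 libraries (red triangles, Cre+; blue circles, Cre-; open, input; filled, pull-down). Kcna1 and Kcna2 pull-downs lie above the inputs in both genotypes, those of Kcnip4 lie below them in both, and a single Cre+ pull-down of Kcnq1ot1 reaches 677.

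Among the silent subunits, Kcns1 and Kcns3 went in opposite directions in Cre-. Kcns1 had 6.96, 5.37 and 5.38 normalised counts in the Cre- inputs and 13.5, 18.9 and 16.7 in the pull-downs (1.47 ± 0.33, edgeR FDR = 0.00913). In Cre+ its inputs were 8.21, 4.84 and 5.8 and its pull-downs 1.44, 3.90 and 3.00 (-1.17 ± 0.65, edgeR FDR = 0.302). The pull-downs lay above the inputs in Cre- and below them in Cre+, and the difference of -2.59 ± 0.70 was called (edgeR FDR = 0.0776). Kcns3 had 23.4, 24.3 and 15.1 in the Cre- inputs and 9.26, 10.8 and 3.13 in the pull-downs (-1.43 ± 0.42, edgeR FDR = 0.0362). Kcnv1, which reduces Kcnb currents, had 11.6, 13.5 and 12.5 in the Cre- inputs and 5.97, 6.37 and 4.09 in the pull-downs (-1.19 ± 0.35, edgeR FDR = 0.0364). Both overlapped in Cre+, and Kcng2, Kcng3 and Kcng4 were called in neither genotype where tested. The Cre- calls of Kcns1, Kcns3 and Kcnv1 were lost with 12 libraries in 1 fit.

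Of the channels gated by calcium or sodium, Kcnma1, the large-conductance calcium-activated channel, had similar log2 fold changes in both genotypes. It had 49.0, 66.1 and 74.0 normalised counts in the Cre- inputs and 108, 119 and 160 in the pull-downs (1.03 ± 0.21, edgeR FDR = 0.00626). In Cre+ it had 39.6, 79.1 and 87.8 in the inputs and 119, 120 and 168 in the pull-downs, which did not overlap but missed the test (0.98 ± 0.39, edgeR FDR = 0.177). The difference was -0.01 ± 0.45. The Cre- call of Kcnma1 was lost by library size alone and with 12 libraries in 1 fit, while DESeq2 called Kcnma1 higher in Cre+. Kcnt1, a sodium-activated channel, was called in neither genotype, with 0.90 ± 0.38 in Cre+ and -0.73 ± 0.38 in Cre- and a difference of 1.67 ± 0.58 (edgeR FDR = 0.148). Kcnt2 was lower in the Cre- pull-downs, at 8.48, 8.06 and 2.75 against 12.3, 12.4 and 17.7 in the inputs (-1.13 ± 0.43, edgeR FDR = 0.0916), and lost the call in 5 of the 6 fits with a library left out, with the replicate block, with no filter and in the fit of 12 libraries. The small-conductance channels Kcnn1 and Kcnn2 were tested in Cre- only and not called (0.06 ± 0.51 and -1.19 ± 0.62).

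The auxiliary Kcnmb1, the beta subunit of Kcnma1, is best known from smooth muscle. It had 49.0, 50.9 and 34.1 normalised counts in the Cre- inputs and 17.4, 10.5 and 2.68 in the pull-downs (-2.12 ± 0.54, edgeR FDR = 0.0263). This was the lowest log2 fold change of the 52 genes tested in Cre-. In Cre+ the pull-downs of 9.10, 33.3 and 34.8 also lay below the inputs of 38.4 to 49.9, without passing the test (-0.77 ± 0.59, edgeR FDR = 0.453). The summed markers of pericytes and smooth muscle were 74.6 to 89.4 normalised counts in the Cre- inputs and 18.5 to 73.8 in the pull-downs, with both of the 2 tested markers lower. In Cre+ the sums were 57 to 76.8 in the inputs and 51.6 to 93.25 in the pull-downs, which overlapped, with 0 of 2 called. The part of these markers in the values of Kcnmb1 was not tested.

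The Kcnip proteins bind the Kcnd channels, and 2 of the 3 tested in both genotypes had a difference called higher, as had 2.58% of all genes. Kcnip4 had 396, 351 and 282 normalised counts in the Cre- inputs and 119, 127 and 108 in the pull-downs (-1.54 ± 0.17, edgeR FDR = 0.000125). In Cre+ it had 313, 284 and 259 in the inputs and 185, 248 and 224 in the pull-downs (-0.39 ± 0.26, edgeR FDR = 0.385). Pull-downs were below inputs in both, and the difference of 1.19 ± 0.29 was called (edgeR FDR = 0.0631). Kcnip3 had 652, 574 and 489 in the Cre- inputs and 304, 339 and 239 in the pull-downs (-0.96 ± 0.17, edgeR FDR = 0.00287), which passed the FDR but not the 2-fold limit. In Cre+ its inputs of 654, 438 and 428 and pull-downs of 389, 688 and 1285 overlapped (0.64 ± 0.41, edgeR FDR = 0.368). The difference for Kcnip3 was 1.64 ± 0.48 (edgeR FDR = 0.0989), just inside the threshold. Of the 12 fits with a library left out, Kcnip3 lost its called difference in 10 and Kcnip4 in 7, and both lost it under upper-quartile and library-size scaling. Kcnip2, tested in Cre- only, had 19.9, 15.3 and 6.59 in the inputs and 34.5, 32.6 and 28.3 in the pull-downs (1.20 ± 0.36, edgeR FDR = 0.0373). Kcnip1 was called in neither genotype, and its Cre+ pull-downs of 2.55, 21.2 and 72.4 spanned its inputs.

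The beta subunits that bind Kcna channels were below 2-fold. Kcnab2 had 348, 364 and 325 normalised counts in the Cre- inputs and 475, 724 and 635 in the pull-downs (0.82 ± 0.17, edgeR FDR = 0.00618), all above the inputs. In Cre+ its inputs of 399, 314 and 324 and pull-downs of 244, 409 and 365 overlapped (-0.03 ± 0.28, edgeR FDR = 0.963). Kcnab1 had 0.67 ± 0.23 in Cre- (edgeR FDR = 0.066) and -0.29 ± 0.53 in Cre+.

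Among the inward rectifiers, Kcnj3, a subunit of the channels opened by G proteins, was enriched in Cre-. It had 4.02, 5.28 and 3.33 normalised counts in the Cre- inputs and 11.9, 15.2 and 9.38 in the pull-downs (1.53 ± 0.39, edgeR FDR = 0.0171). This call was lost with 12 libraries in 1 fit. In Cre+ the pull-downs were 112, 2.80 and 6.81 against inputs of 2.97, 4.52 and 5.37, so that a single library carried the log2 fold change of 3.24 ± 1.24 (edgeR FDR = 0.159), which was 0.20 without it. The related Kcnj6 had Cre+ pull-downs of 85.4 and 24.8 above its inputs of 5.06 to 12.7 and the other, at 0.577, below them (2.17 ± 1.22, and 0.67 without the highest). It was not called in Cre- either (-0.13 ± 0.36). The antisense gene Gm26794 covers 31.1% of the exon bases of Kcnj3. Kcnj12 was called in neither genotype. Kcnj10, the rectifier of satellite glia, was not listed for Cre+ and was too low to be tested in Cre-, with 0 to 1.32 normalised counts.

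The Kcnk genes code for the leak channels that set the resting potential. Kcnk1 had 40.4, 25.4 and 38.1 normalised counts in the Cre- inputs and 79.3, 107 and 122 in the pull-downs (1.57 ± 0.24, edgeR FDR = 0.000872), all above the inputs. In Cre+ it had 55.0, 24.6 and 23.3 in the inputs and 5.55, 38.6 and 5.77 in the pull-downs, which overlapped (-1.04 ± 0.85, edgeR FDR = 0.477). The difference of -2.56 ± 0.90 missed the threshold (edgeR FDR = 0.153), and without Cre+ pull-down 2 Kcnk1 was called lower in Cre+ (-2.58, edgeR FDR = 0.0908). Kcnk13 was lower in Cre-, at 7.74, 11.4 and 12.9 in the inputs and 5.30, 5.49 and 4.09 in the pull-downs (-1.10 ± 0.38, edgeR FDR = 0.0656). The Cre- calls of Kcnk1 and Kcnk13 were lost with 12 libraries in 1 fit, and that of Kcnk13 at an FDR of 0.05. Kcnk18 and Kcnk2, channels studied in pain, were called in neither genotype. In Cre+, Kcnk18 had 7.42, 4.71 and 2.16 in the inputs and 1.67, 0.854 and 31.5 in the pull-downs. Its log2 fold change of 1.25 ± 1.21 rested on the third of these pull-downs and was -1.89 without it. For Kcnk2 the value in Cre+ was -0.56 ± 0.80, and -1.56 without Cre+ pull-down 3. In Cre-, Kcnk18 and Kcnk2 had -0.38 ± 0.89 and -1.18 ± 0.51. The Cre- pull-downs of Kcnk2 all lay below the inputs, and it was called lower there by library size alone and by the exact test. Over the 6 fits with a Cre- library left out, Kcnk18 ranged from -0.93 to 0.85 and Kcnk2 from -1.38 to -0.74. Kcnk3, Kcnk10 and Kcnk12 were not called where tested.

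The noncoding Kcnq1ot1 is an RNA transcribed antisense to Kcnq1 that acts in imprinting, and its values are given as a description. It had 3.58, 2.84 and 4.81 normalised counts in the Cre+ inputs and 677, 31.3 and 31.3 in the pull-downs, so that pull-down 1 carried most of its mean. Its call was lost in DESeq2 and without any single Cre+ input. In Cre- it was below the FPKM limit and not tested, with 5.68, 6.6 and 4.02 in the inputs and 50.8, 8.67 and 21.5 in the pull-downs, again all above the inputs. The antisense genes Kcnmb4os1 and Kcnmb4os2 together cover 75.3% of the exon bases of Kcnmb4, and neither Kcnmb4 nor Kcnmb4os1 was called in Cre-. Of the genes that were tested in neither genotype, those coding for auxiliary subunits were Kcnab3, Kcne3, Kcne4, Kcnmb2 and Kcnmb3. The others coded for Kcnd2, Kcnh4, Kcnh8, Kcnf1, Kcnn3, Kcnn4, Kcnu1, Kcnk4 and the rectifiers Kcnj2, Kcnj4, Kcnj5, Kcnj9, Kcnj10, Kcnj11 and Kcnj15, and Kcnrg, a regulator of channel assembly, was tested in Cre- without a call.

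The next question was whether the enrichment differed between the genotypes. Of the 43 genes tested in both, 6 were called higher in Cre+ and 15 in Cre-, and 5 in both (Kcna1, Kcna2, Kcnb2, Kcnc1 and Kcnh7). These are 83.3% of the Kcn genes higher in Cre+ and 33.3% of those higher in Cre-. Of all 8830 genes tested in both, 407 were higher in Cre+, 529 in Cre- and 111 in both, which are 27.3% and 21%. The genotypes share no library. In the test of the difference itself, 5 of 43 were higher in Cre+ (among them Kcna4, Kcnd3, Kcnip3 and Kcnip4) and 1 lower (Kcns1), where 2.58% and 2.1% of all 8830 genes were called. The median difference was 0.74, against 0.13 for all genes, both over genes with at least 5 counts in each Cre+ library. The calls of Kcna4, Kcnd3, Kcnip3, Kcnip4 and Kcns1 were each lost in 7 to 10 of the 12 fits with a library left out, among them every fit without Cre+ input 2 or 3, any Cre- input, or Cre- pull-down 2 or 3. Those of Kcnd3, Kcnip3 and Kcnip4 were also lost under upper-quartile and library-size scaling, and that of Kcnip3 with either other filter. In the fits without a library just named, 1 Kcn gene was called higher, and 15 to 55 of all genes in place of 228. The log2 differences ranged over the 12 fits from 1.08 to 1.32 for Kcnip4, 1.38 to 1.77 for Kcnd3, 1.09 to 1.97 for Kcnip3, 1.96 to 3.44 for Kcna4 and -2.93 to -2.28 for Kcns1. Without Cre+ pull-down 1 or Cre+ pull-down 2 there were 9 and 8 Kcn genes higher (632 and 712 of all genes), and without Cre+ input 1 there were 2 (43 of all genes).

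**Figure D4:**
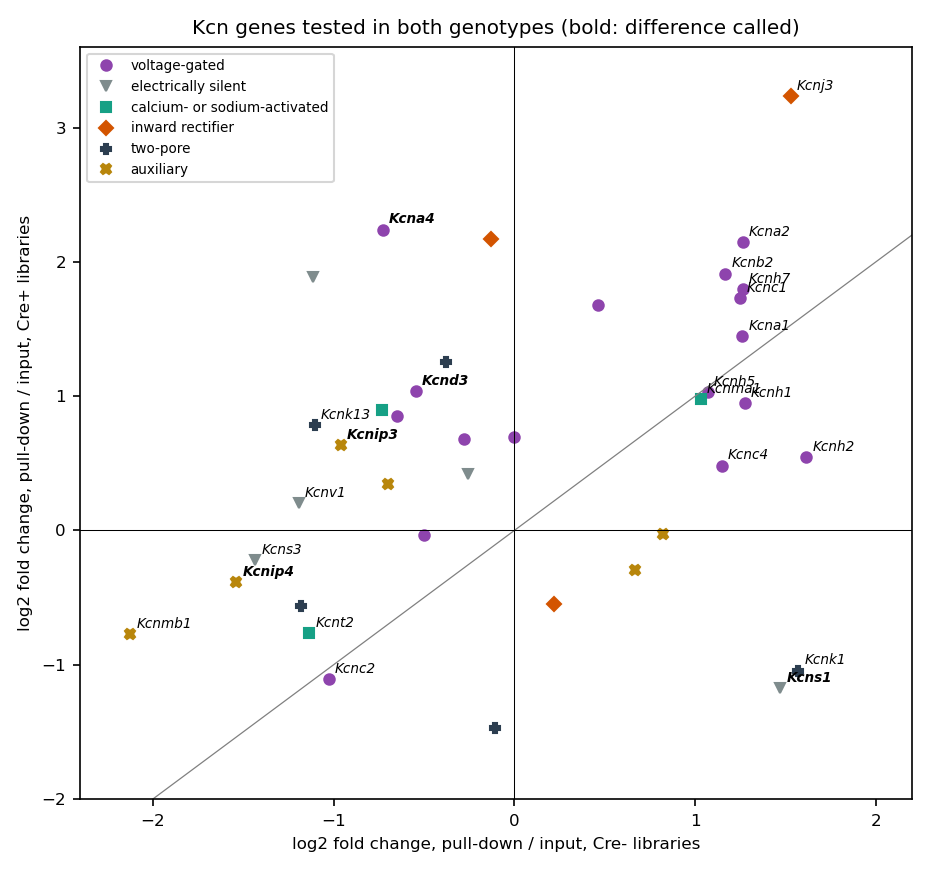
Pull-down enrichment (log2 fold change) in Cre+ (y axis) against Cre- (x axis) for 39 Kcn genes tested in both, by channel class, with the line of equal values. Genes called in either genotype or for the difference are named, and 5 with a called difference are in bold, 4 above the line and Kcns1 below it.

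The inputs of the genotypes were compared to see whether the cultures differed before the pull-down. edgeR called 0 of 43 Kcn genes and 0% of all 8830 genes, and DESeq2 and edgeR's exact test called 0 Kcn genes each. At an unadjusted p below 0.05 there was 1 Kcn gene, Kcnc1, which was lower in the Cre+ inputs (log2 fold change -0.61 ± 0.21, edgeR FDR = 0.999), and 174 of all genes.

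Genes whose products bind, cluster or regulate potassium channels, or carry the opposing HCN current, were a list of 33. In Cre+, 26 were tested, 2 were higher and 1 lower, where 4.72% and 2.19% of all genes were. They were the initial segment scaffold Ank3 (2.03 ± 0.39, edgeR FDR = 0.0401), the Kcna-associated membrane protein Adam22 (1.19 ± 0.28, edgeR FDR = 0.0626) and the calmodulin gene Calm2 (-1.73 ± 0.34, edgeR FDR = 0.0422). In Cre-, 27 were tested, 4 were higher and 1 lower, where 6.01% and 5.83% of all genes were. These were the secreted Lgi3 (1.55 ± 0.24), the scaffold Dlg2 (1.35 ± 0.20), Hcn2 (1.17 ± 0.31) and the juxtaparanodal Cntnap2, which gathers Kcna1 and Kcna2 at the axon (1.03 ± 0.17), and, lower, Hcn3 (-1.03 ± 0.25), at edgeR FDR of 0.0234 or less each. The list's median was 0.16 in Cre+ and 0.25 in Cre-, against 0.08 and -0.04 for all genes. The difference was called for Ank3 (1.5 ± 0.43), higher in Cre+, and for Dlg2, Lgi3 and Calm2, lower, of 26 tested, where 2.58% and 2.1% of all genes were called higher and lower.

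Exon length differed between called and uncalled genes, other than for the Kcn genes called lower in Cre-, which were not shorter than those without a call. The 7 Kcn genes higher in Cre+ had a median of 11.9 kb of exon (11.7 kb for the 6 without Kcnq1ot1) and the 37 without a call 4.19 kb. Over all genes tested in Cre+ the medians were 8.8 kb for the genes called higher, 3.78 kb for those without a call and 1.8 kb for those called lower. In Cre-, the Kcn genes called higher, lower and not at all had medians of 5.53, 4.05 and 3.81 kb, and all genes 4.97, 2.33 and 3.42 kb. The part of length in the Kcn results was not tested.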

How the data were processed

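RNA was sequenced from 3 HA pull-downs and 3 inputs per genotype. The authors aligned reads to mm10 with STAR, and the deposited counts are whole read fragments per gene from HTSeq on RefSeq annotation, with uniquely mapped reads and no normalization. The deposited FPKM is the authors' mean over a table's libraries and served as a filter (above 1) and as a check on the order of levels. The deposited fold changes and p-values of the authors' own comparisons, and 18 per-sample columns of normalised counts and of ratios to input, were not used. CASAVA 1.8.2 is named in the submitters' processing notes. Strand use is not given in the sources used here.

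In the Cre+ table the pull-down columns are named almost like the titles of samples labelled Cre-. Their group was taken from the Cre+ labels, which name that table, so column numbers only tell libraries apart.

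edgeR 4.0.16 (R 4.3.3, TMM, glmQLFTest after glmQLFit with robust moderation) compared the fractions within each genotype, on the genes past the FPKM filter, with Benjamini-Hochberg adjustment over all of them. The difference was the interaction in a fit of 12 libraries. Calls needed an FDR below 0.1 and a 2-fold change. The standard error is the log2 fold change over the square root of F. Levels per length used the union of GENCODE M21 exons, and all 73 genes matched an exon length and a RefSeq position on GRCm38. Every Kcn gene could be named, with the value in each library for those called, the most abundant of each family and a list of further members. Some of them enter the counts and medians but are not reported here. Members and lists were chosen with earlier results of these data known. Alternatives were DESeq2 1.42.0, another filter or none, upper-quartile or library-size scaling, an FDR of 0.05, no fold limit, the exact test, 1 fit of 12 libraries, a replicate block in Cre-, each library left out, and, added after the data were seen, no robust moderation. The fits were also run on simulated counts with 200 genes changed at a log2 size of 2. They recovered 98.5 to 100% of these, with 5 to 17 false calls. The simulation gave all libraries the same spread, so it does not cover the wider spread of the Cre+ pull-downs, smaller changes or low counts. Totals ranged from 8886308 to 18633365 counts per library. Reads carry no molecular identifiers and are not independent molecules.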

Additional observations from a re-analysis of the deposited data

Results flagged for a closer look

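The enrichment of 5 Kcn genes named here differed between the genotype labels by the interaction test in edgeR, given as Cre+ minus Cre- on the log2 scale. The differences were 3.00 for Kcna4, 1.64 for Kcnip3, 1.62 for Kcnd3, 1.19 for Kcnip4 and -2.59 for Kcns1. Each call was lost in 7 to 10 of the 12 fits with a library left out, while the log2 differences stayed between 1.08 and 1.32 for Kcnip4 and between -2.93 and -2.28 for Kcns1, and that of Kcna4 ranged from 1.96 to 3.44. The calls of Kcnd3, Kcnip3 and Kcnip4 were also lost under upper-quartile and library-size scaling, and that of Kcnip3 with either other filter. Over all genes, 228 were called higher, against 15 to 55 without any 1 of the Cre+ inputs, the Cre- inputs, Cre- pull-down 2 or Cre- pull-down 3. Without Cre- pull-down 1 there were 218 and without Cre+ pull-down 3 there were 508, and Kcnip3 lost its call in both fits and Kcna4 in the first. Runx3, whose promoter drives the Cre, was called higher in the pull-downs labelled Cre- (log2 fold change 3.52) and not in those labelled Cre+ (1.55), a difference that was itself not called (-1.92 ± 0.99, edgeR FDR = 0.304), and the sign of each difference follows the labels only. Groups of 3 libraries are too small for a test of single outlying samples.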

How the results depend on the processing

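No named value changed sign where called. For the Cre+ pull-down, 7 genes were higher (422 of all genes), 10 with DESeq2 (1103), 10 with the exact test (794), 11 of the 43 tested with 12 libraries in 1 fit (1240) and 0 to 13 with a library left out, and 0 were lower, 0 to 1 with a library left out (Kcnk1). For Cre-, 16 were higher, 10 by library size alone and 8 in the 12-library fit, with 13 to 16 on leaving out a library. The 8 lower became 12 by library size alone, 2 in the 12-library fit and 3 to 10 on leaving out a library. That fit tested 43 Kcn genes in place of 52 and called 267 of all genes higher and 175 lower in Cre-, in place of 693 and 672. For the difference, 5 were higher, 2 under upper-quartile scaling, 2 by library size alone, 1 at an FDR of 0.05 and 1 to 9 with a library left out. The 1 lower became 2 with DESeq2, 0 at an FDR of 0.05 and 0 to 3 with a library left out. The causes were not tested. Library-size scaling moved the median of all genes to -0.361 in Cre+ and -0.273 in Cre-, and upper-quartile scaling to -0.115 in Cre+. In Cre+, all genes called higher and lower were 422 and 196, 249 and 266 with upper-quartile scaling and 192 and 699 by library size alone. For the difference they were 228 and 185, 92 and 207, and 75 and 282. The median of the silent subunits in Cre+ was 0.20, and -0.21 by library size alone, and that of the inward rectifiers in Cre- 0.22, and -0.02. The silent subunits tested in Cre+ include Kcng2 (1.88), which passed the FPKM limit only through the pull-downs. Replicate numbers of the Cre- samples did not pair them by the rule used, since deviations of same-numbered pull-downs and inputs correlated at 0.075, 0.034 and 0.141, although each pull-down correlated best with its own number. With a replicate block in Cre-, 16 Kcn genes were higher and 7 lower, Kcnt2 losing its call. No paired analysis was run in Cre+, because its columns could be tied to a group but not to a numbered sample.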
